A study of Mus musculus with 4 samples.

Results

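The 10 genes Camp, Ngp, Ltf, Lcn2, Fcnb, Chil3, Mmp8, Mmp9, S100a8 and S100a9 encode secondary granule proteins and other products of maturing neutrophils. They were chosen by name and found through the gene symbols of the probe sets. All 10 were measured, among 18193 genes on the array, each by its brightest probe set that names that gene alone, out of 11 such probe sets. Expression was measured on 4 Affymetrix arrays in LSK bone marrow cells, the lineage-negative, cKit+, Sca1+ cells among which blood stem cells and early progenitors are found. Ncstn KO mice had the genotype Ncstn flox/flox Mx1-cre+, and WT mice were Ncstn flox/flox littermates without the cre transgene, so both groups carried floxed alleles and the groups differed in the transgene as well as in the deletion. The product of Ncstn, nicastrin, belongs to gamma-secretase, the protease of Notch receptors, and Mx1-cre is a recombinase gene switched on by interferon in many cell types, not in blood cells alone. Mice of both groups received 3 injections of polyIC, an inducer of interferon, at 20 µg per g of body weight from 14 days of age, and marrow was taken 4 weeks later, when they were 6 weeks old. There were 2 mice per group, 1 male and 1 female. Ncstn KO replicate 2 and WT replicate 1 were the males, and Ncstn KO replicate 1 and WT replicate 2 were the females.

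Neutrophils make their granules in waves during maturation. Primary granules, with myeloperoxidase and serine proteases, form first in promyelocytes. Secondary granules, with lactoferrin, cathelicidin and lipocalin 2, follow in myelocytes under the control of C/EBP transcription factors, and gelatinase granules form later still. Transcripts of secondary granule proteins are therefore markers of cells past the progenitor stage, which a lineage-negative sort is meant to leave out. In sorted bulk RNA, fewer cells of a type and less RNA per cell cannot be told apart.

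The arrays were similar as a whole. Median intensities over 45101 probe sets were 79.2 in the male and 71.6 in the female Ncstn KO mouse, against 76.7 and 75.0 in the male and female WT mice. Both male medians thus lay above both female medians. The largest intensity on any array was 23643. With 4 arrays, precision is limited by their number. The log2 signal of 3' over 5' actin probe sets, a measure of RNA and amplification quality, was 0.939 in the male and 1.02 in the female Ncstn KO mouse. In WT it was 0.889 in the male and 0.788 in the female. The same measure for Gapdh was 0.768 in the male and 0.692 in the female Ncstn KO mouse, against 0.713 and 0.645 in the male and female WT mice. For Gapdh both males thus lay above both females, which was not so for actin. The part of either measure in the results was not tested. Ncstn itself had intensities of 191 and 240 on the Ncstn KO arrays, against 505 and 530 on the WT arrays, and did not pass over all genes (log2 change -1.27, SE 0.22, limma adjusted p = 0.257). Whether the probe set falls inside the deletion is not known here, so the remaining signal cannot be read as a share of cells without deletion. The female transcript Xist was bright on both arrays labelled female (3666 and 3831) and dim on both labelled male (29.4 and 68.3). Stem and progenitor markers were present on all arrays, with Kit at 3318 and 3389 in Ncstn KO and at 3036 and 3939 in WT, and Cd34 at 6967 and 7046 in Ncstn KO and at 7141 and 7194 in WT. Ly6a, which encodes Sca1, was not analysed here.

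All 10 genes gave their highest intensity on the Ncstn KO male array, and for 8 of them both male arrays lay above both female arrays. Among all 18193 genes the Ncstn KO male array was the highest for 23.1%, both male arrays exceeded both female arrays for 11.5%, and both held together for 6.96%. Between the genotypes, 0 of the 10 passed limma's test across all genes at an adjusted p under 0.05, as did 0% of all genes. Mmp8 alone had an unadjusted p under 0.05, which 6.8% of all genes had. Both Ncstn KO arrays lay above both WT arrays for 2 of the 10, Mmp8 and Mmp9, and for 21.3% of all genes. For 1 gene, 2 arrays against 2 allow no two-sided exact permutation p below 0.333.

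**Figure D1:**
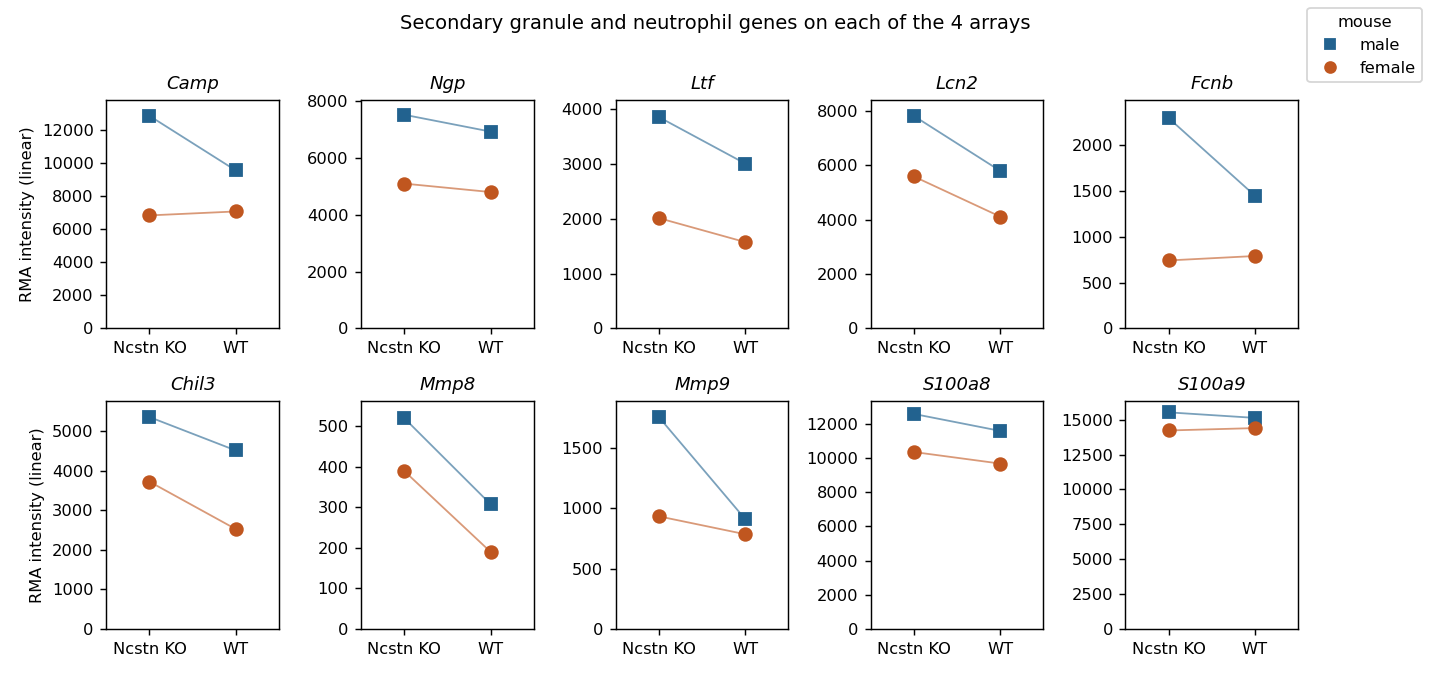
Linear RMA intensity (y axis, from 0, a separate scale for each gene) of the 10 genes on the Ncstn KO arrays (left in each panel) and the WT arrays (right). Squares are males, circles are females, and a line joins the mice of one sex. The male line lies above the female line in every panel, and the Ncstn KO male is the highest point for all 10 genes.

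The promoters of Ltf, Ngp and Mmp8 are printed to show C/EBP-type letters in genes described below, and that of Camp as the window without them. The windows run from 250 bases before to 50 bases after the start of the gene, were taken from RefSeq (GRCm38.p6), and were found for 9 of the 10 genes, all but Mmp9. Capitals mark every match to TTNNGNAA on either strand, a loose form of the C/EBP recognition sequence.
Ltf promoter, chr9:111019042-111019341, plus strand: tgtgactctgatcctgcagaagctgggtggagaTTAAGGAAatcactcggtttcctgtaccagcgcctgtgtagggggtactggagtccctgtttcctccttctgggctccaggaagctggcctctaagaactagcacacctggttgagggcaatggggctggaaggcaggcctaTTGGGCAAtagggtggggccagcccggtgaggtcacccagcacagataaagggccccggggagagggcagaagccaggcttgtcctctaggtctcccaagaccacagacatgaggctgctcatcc
Ngp promoter, chr9:110419558-110419857, plus strand: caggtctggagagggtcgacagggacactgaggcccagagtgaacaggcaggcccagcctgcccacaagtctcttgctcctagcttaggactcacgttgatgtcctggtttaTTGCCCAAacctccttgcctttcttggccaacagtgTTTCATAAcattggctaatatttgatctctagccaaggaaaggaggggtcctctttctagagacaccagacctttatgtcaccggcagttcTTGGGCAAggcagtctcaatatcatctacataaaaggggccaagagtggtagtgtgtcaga
Mmp8 promoter, chr9:7558179-7558478, plus strand: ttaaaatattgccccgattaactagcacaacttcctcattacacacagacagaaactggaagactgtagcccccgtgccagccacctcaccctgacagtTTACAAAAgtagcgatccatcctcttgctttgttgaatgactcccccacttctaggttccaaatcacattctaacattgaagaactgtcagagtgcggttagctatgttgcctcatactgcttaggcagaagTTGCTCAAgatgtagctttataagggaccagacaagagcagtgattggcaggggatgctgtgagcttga
Camp promoter, chr9:109849407-109849706, minus strand: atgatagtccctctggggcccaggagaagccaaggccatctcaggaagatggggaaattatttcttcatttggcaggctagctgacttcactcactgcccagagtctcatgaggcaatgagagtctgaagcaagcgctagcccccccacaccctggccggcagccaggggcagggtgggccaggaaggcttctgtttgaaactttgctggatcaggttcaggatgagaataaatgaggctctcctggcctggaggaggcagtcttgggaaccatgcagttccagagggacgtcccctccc

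Such a match was present in 8 of the 9 windows, Camp being the one with none, and in 40.7% of the 32851 promoter windows of that length in the table. Ltf held 2 matches, Ngp 3 and Mmp8 2, and overlapping matches were counted separately. The letters GAGGAA, which the myeloid factor PU.1 binds, were present on either strand in 4 of the 9 windows, those of Lcn2, S100a8, Mmp8 and Ltf, and in 28.3% of all windows. A match describes the sequence and does not show that a factor binds there.

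For the antimicrobial proteins of secondary granules, both male arrays lay above both female arrays and the genotypes overlapped. For Lcn2 the reverse held when each array was centred on its median, where the sexes overlapped and the genotypes did not. Ltf, which encodes the iron-binding protein lactoferrin, had intensities of 3852 in the male and 2010 in the female Ncstn KO mouse, against 3004 in the male and 1572 in the female WT mouse. Both males lay above both females, and the genotypes overlapped. Its log2 change was 0.36 (SE 0.39, limma adjusted p = 0.973), with means of 11.44 ± 0.66 in Ncstn KO and 11.09 ± 0.66 in WT (SD of log2 intensity, n = 2 each). The change was 0.36 in the male and 0.35 in the female pair.

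Lcn2, which encodes lipocalin 2, a protein that withholds iron by binding bacterial siderophores, had 7807 in the male and 5582 in the female Ncstn KO mouse, against 5789 in the male and 4108 in the female WT mouse. Its difference by sex (0.49, male minus female) was close to that by genotype. The Ncstn KO mouse was the higher of each sex by nearly the same amount, 0.43 in males and 0.44 in females on the log2 scale, although the Ncstn KO female lay just below the WT male. Over all 4 arrays the change was 0.44 (SE 0.21, adjusted p = 0.8).

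Camp, which encodes the precursor of the cathelicidin antimicrobial peptide, had 12843 in the male and 6827 in the female Ncstn KO mouse, against 9546 in the male and 7065 in the female WT mouse. The 2 Ncstn KO arrays were thus the highest and the lowest of the 4, and the WT arrays lay between them. Its log2 change of 0.19 (SE 0.29, adjusted p = 0.986) combined 0.43 in males with -0.05 in females.

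Fcnb, which encodes ficolin B, a lectin that recognises microbial sugars and can start the lectin pathway of complement, had the same arrangement as Camp and the widest spread of the 10 genes. Its intensities were 2298 in the male and 742 in the female Ncstn KO mouse, against 1449 in the male and 790 in the female WT mouse. The male exceeded the female 3.10-fold in Ncstn KO and 1.83-fold in WT. The log2 change between genotypes was 0.29 (SE 0.55, adjusted p = 0.989), from 0.66 in males and -0.09 in females.

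Ngp, which encodes neutrophilic granule protein, a cystatin-like relative of the cathelicidins, had 7518 in the male and 5095 in the female Ncstn KO mouse, against 6925 in the male and 4798 in the female WT mouse. The genotypes overlapped, and each male lay above both females. Its change of 0.10 (SE 0.23, adjusted p = 0.991) was less than its spread within either genotype, which was 0.40 in Ncstn KO and 0.37 in WT (SD of log2 intensity, n = 2 each).

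Chil3, which encodes the chitinase-like lectin Ym1 of neutrophil precursors and some macrophages, had 5363 in the male and 3727 in the female Ncstn KO mouse, against 4517 in the male and 2527 in the female WT mouse. The order of the arrays was that of Ltf, Lcn2 and Ngp, with the Ncstn KO male first and the WT female last. Its change was 0.40 (SE 0.29, adjusted p = 0.925). A dimmer probe set shared with the near-identical gene Chil4 gave 3168 and 1866 in the male and female Ncstn KO mice, against 2600 and 1298 in the male and female WT mice, a change of 0.40 as well. Probe sets cannot fully separate such copies.

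The metalloprotease genes were the 2 in which both Ncstn KO arrays exceeded both WT arrays. Mmp8 encodes neutrophil collagenase, a secondary granule enzyme, and had 520 in the male and 389 in the female Ncstn KO mouse, against 308 in the male and 190 in the female WT mouse. It had the largest change of the 10 genes, 0.90 (SE 0.30), or 1.86-fold, with an unadjusted p of 0.0251 and a limma adjusted p of 0.628. Signal over background could not be assessed from probe set summaries. Males differed by 0.76 between the genotypes and females by 1.04. Mmp9 encodes gelatinase B, the marker enzyme of gelatinase granules, and had 1754 in the male and 933 in the female Ncstn KO mouse, against 909 in the male and 785 in the female WT mouse. The Ncstn KO female exceeded the WT male only slightly, and the Ncstn KO male stood apart from the other 3 arrays. Its change was 0.60 (SE 0.30, adjusted p = 0.824), made of 0.95 in males and 0.25 in females. A second, dimmer Mmp9 probe set had 643 and 426 in the male and female Ncstn KO mice, against 283 and 285 in the male and female WT mice, a change of 0.88 with no difference between the sexes in WT. Under a repeated quantile normalization both Ncstn KO arrays were above both WT arrays for 1 of the 10 genes, against 20.6% of all genes. Under scaling to the hybridization controls this held for 1 of the 10, against 6.73%. When each array was centred on its median it held for 3, against 19.4%.

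S100a8 and S100a9 encode the subunits of calprotectin, a calcium- and zinc-binding protein of the neutrophil and monocyte cytosol rather than of the granules. S100a8 had 12577.5 in the male and 10349.9 in the female Ncstn KO mouse, against 11586 in the male and 9674 in the female WT mouse. S100a9 had 15532 in the male and 14233 in the female Ncstn KO mouse, against 15136 in the male and 14403 in the female WT mouse. Of the 10 genes, these differed least over the arrays. The log2 change between genotypes was 0.11 (SE 0.12, adjusted p = 0.973) for S100a8 and 0.010 (SE 0.062, adjusted p = 0.9996) for S100a9. Both genes lie on chromosome 3, and for S100a9 the 2 Ncstn KO arrays were again the highest and the lowest.

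As a group, the 10 genes had a median log2 change of 0.32 (Ncstn KO minus WT), with a range of 0.010 to 0.90, against a median of 0.02 over all genes. All 10 lay above WT on average, as did 10150 of all 18193 genes. Camp, Ngp, S100a8 and S100a9 lay below WT after scaling to the hybridization controls, which were brighter in Ncstn KO by 0.196 (log2). After it, 3900 of all genes lay above WT. That scaling moved the median of all genes to -0.17, and 9 of the 10 genes were above the median of all genes with and without it. Within males all 10 were higher in Ncstn KO, with a median of 0.39, against 9028 of all 18193 genes. Within females 7 of the 10 were, with a median of 0.17, against 10868 of all genes. The direction of the group rested on single arrays. The median was -0.04 without the Ncstn KO male and -0.02 without the WT female, and it was 0.67 without the Ncstn KO female and 0.69 without the WT male. Each such value sets 1 mouse against a male and a female, so it includes part of the difference between the sexes.

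**Figure D2:**
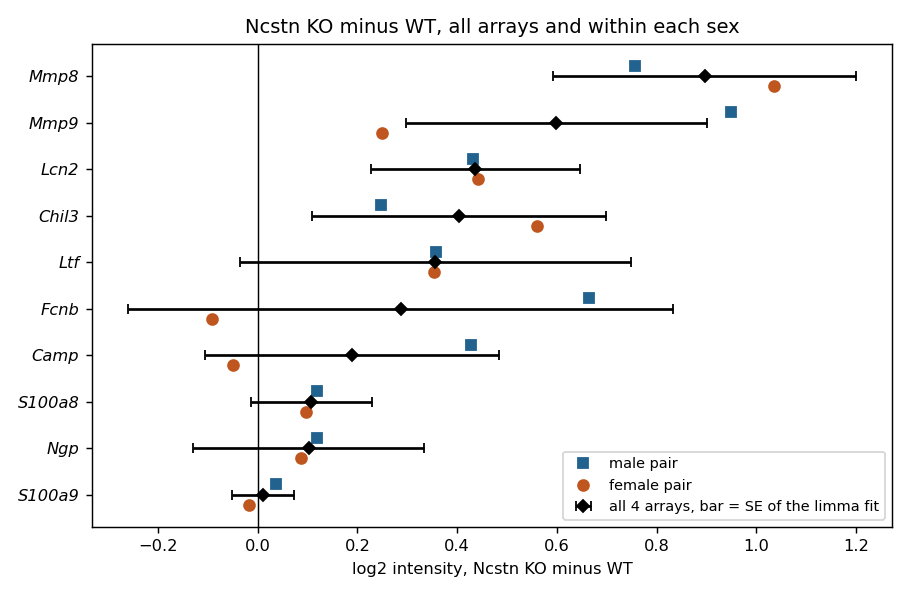
Log2 intensity of Ncstn KO minus WT (x axis) for each of the 10 genes, ordered by the value over all 4 arrays (diamonds, bars are the SE of the limma fit, n = 2 per group), with the male pair as squares and the female pair as circles. Mmp8 is highest at 0.90, S100a9 lies at 0.010, and the female circles of Camp, Fcnb and S100a9 fall below 0. Scaled to the hybridization controls, Camp, Ngp, S100a8 and S100a9 would lie below 0.

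With sex as a second term in the fit, the errors of the genotype change became smaller for all 10 genes, since the term takes up the spread between male and female. The change of Lcn2 then had an SE of 0.056 and that of Ltf an SE of 0.087. An unadjusted p under 0.05 was found for 6 of the 10 (Lcn2, Mmp8, Ltf, Chil3, Mmp9 and S100a8), against 8.75% of all genes, and 0 passed after adjustment over all genes. The smallest adjusted p was 0.27, for Lcn2. That fit has 1 residual degree of freedom, which is the disagreement between the male and the female pair. Limma combines it with the spread of all genes, so these SEs do not measure the disagreement alone. The change in males minus that in females was -0.011 for Lcn2 and 0.0046 for Ltf, smaller in size than their SEs.

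The difference between males and females ran the same way for every one of the 10 genes. This comparison was added after the data were seen. The male mean exceeded the female mean for 10 of 10 genes, with a median log2 difference of 0.56, whereas the median over all genes was -0.07 and 6698 of the 18193 were higher in males. The size ran from 0.10 for S100a9 (SE 0.04) to 0.94 for Ltf (SE 0.09) and 1.25 for Fcnb (SE 0.21), or 1.07-fold to 2.38-fold. Ngp had a difference of 0.55 (SE 0.06), with the male 1.48-fold above the female in Ncstn KO and 1.44-fold in WT. Ltf had ratios of 1.92 in Ncstn KO and 1.91 in WT, and Lcn2 of 1.40 and 1.41, and the ratios differed more between Ncstn KO and WT for Camp (1.88 and 1.35), Mmp9 (1.88 and 1.16) and Fcnb (3.10 and 1.83). The difference between such ratios was not tested. In the limma fit with genotype and sex, 10 of the 10 had an unadjusted p under 0.05, against 8.58% of all genes, and 0 passed after adjustment over all genes, which 0.022% of all genes did. The adjusted p was 0.352 for Ltf, 0.407 for Ngp and 0.574 for the other 8.

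The array medians were higher in both males than in both females. Centring each array on its median, 1 of the alternative scalings, changed the calls by sex. Under it Fcnb (adjusted p = 0.0159), Ltf (adjusted p = 0.0184) and Camp (adjusted p = 0.0442) were higher in males, among 0.319% of all genes, and both male arrays were above both female arrays for 6 of the 10 genes, against 5.73% of all genes. The male mean stayed above the female mean for all 10 genes under each of the 3 other scalings, by as little as 0.0088 for S100a9 after centring, and without any 1 array. The median difference was 0.37 without the Ncstn KO male, 0.85 without the WT male, 0.42 without the WT female and 0.70 without the Ncstn KO female. Each of these medians sets 1 mouse against a Ncstn KO and a WT mouse, so it includes part of the difference between the genotypes. The hybridization controls differed between the sexes by -0.015. Each genotype had 1 mouse of each sex, so a difference between males and females cannot be told apart from a difference between these individual mice.

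**Figure D3:**
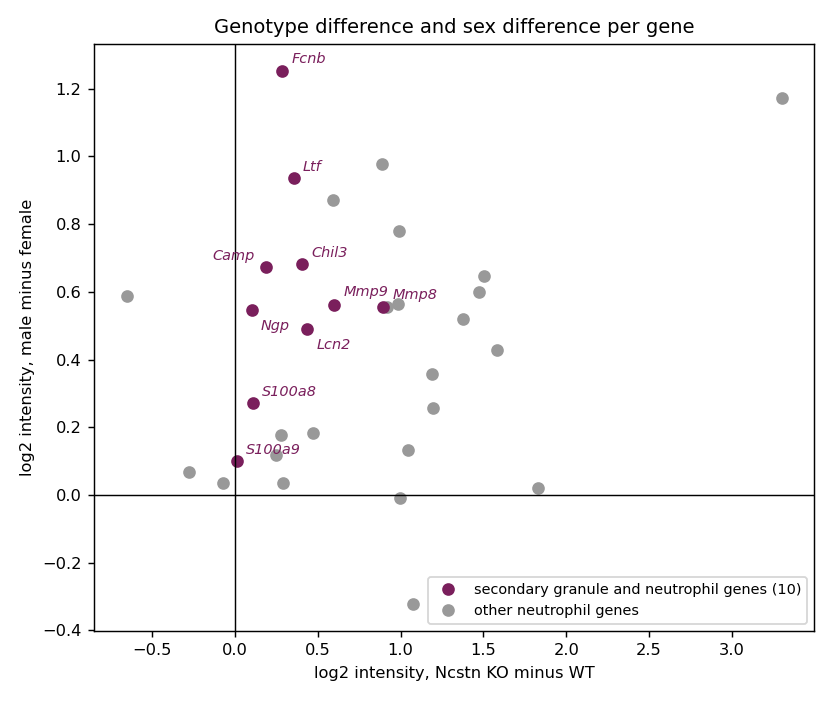
Log2 intensity of male minus female (y axis) against log2 intensity of Ncstn KO minus WT (x axis), 1 point per gene, for the 10 genes (purple, labelled) and 23 other neutrophil genes (grey). The 10 genes lie between 0.10 and 1.25 on the y axis and between 0.010 and 0.90 on the x axis, where Camp, Ngp, S100a8 and S100a9 would fall below 0 if scaled to the hybridization controls; most grey points lie farther right.

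Other genes of the neutrophil lineage were set beside these 10. Of all 18193 genes, 10150 were higher in Ncstn KO on average. Among 23 measured other neutrophil genes, which were not divided by granule type, this held for 20. Their median change was 0.99, and both Ncstn KO arrays were above both WT arrays for 18, against 21.3% of all genes. None passed over all genes by limma (0 of 23), and 17 had an unadjusted p under 0.05, against 6.8% of all genes. Slpi, an inhibitor of neutrophil elastase, had intensities of 3052 in the male and 3290.1 in the female Ncstn KO mouse, against 1641 in the male and 1542 in the female WT mouse (log2 change 0.99, SE 0.11, adjusted p = 0.162). Il1r2, the decoy receptor of interleukin 1, had a change of 1.83 (SE 0.23, adjusted p = 0.192), Hp, which encodes haptoglobin, of 1.19 (SE 0.19, adjusted p = 0.233), and Lrg1, a leucine-rich glycoprotein gene of granulocytes, of 1.58 (SE 0.28, adjusted p = 0.287). Anxa1, the brightest of the list, had 0.28 (SE 0.11, adjusted p = 0.704). The 3 genes lower in Ncstn KO, named after their values were seen, were Il1b (-0.65, SE 0.36), Csf3r (-0.28, SE 0.15) and Padi4 (-0.071, SE 0.19). Both Ncstn KO arrays lay below both WT arrays for 2 of the 23, Il1b and Csf3r, and for 2321 of all 18193 genes. Itgam, an antigen used in many lineage sorts, was chosen after its values were seen. It was dim, at 54.6 and 43.7 in the male and female Ncstn KO mice and at 16.6 and 32.5 in the male and female WT mice.

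By sex, males were higher on average for 21 of the 23, with a median male-minus-female difference of 0.36. Both male arrays lay above both female arrays for 2 of 23, close to the 11.5% of all genes, and for 8 of the 10. With 1 array left out, the median sex difference of the 23 was -0.12 without the Ncstn KO male, with 9 of 23 higher in males. It was -0.022 without the WT female, with 11 of 23 higher. It was 0.87 without the WT male and 0.996 without the Ncstn KO female. Each such value sets 1 mouse against a Ncstn KO and a WT mouse. It therefore includes part of the difference between the genotypes, which was larger for the 23 than for the 10. For the 10 genes males stayed higher for 10 of 10 whichever array was left out. The median change of the 23 between genotypes stayed between 0.73 and 1.21 when any 1 array was left out, with 20 or 21 genes above WT each time, and was 0.79 when scaled to the hybridization controls. The difference between the lists was not tested, since the genes were chosen with earlier results known.

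Primary granule genes were the next list. Of all 18193 genes, 10150 lay above WT, and 3900 did when scaled to the hybridization controls. Of 10 measured primary granule genes, 9 lay above WT with a median of 0.08, and 4 lay above it after that scaling. The same 4 genes had both Ncstn KO arrays above both WT arrays and the smallest p: Ms4a3 (1.35, SE 0.10, adjusted p = 0.0624), a membrane protein gene of granulocyte-macrophage progenitors, and the serine protease genes Elane (1.19, SE 0.11, adjusted p = 0.117), Prtn3 (0.75, SE 0.10, adjusted p = 0.196) and Ctsg (0.58, SE 0.08, adjusted p = 0.196). Of all genes, 21.3% had both Ncstn KO arrays above both WT arrays. Elane had 5830 in the male and 5041.5 in the female Ncstn KO mouse, against 2410 in the male and 2353 in the female WT mouse. Males and females of a genotype lay close together and the genotypes were far apart, the reverse of Ltf or Ngp. Mpo, which encodes myeloperoxidase, was nearly level on all arrays, at 11110 and 11264 in Ncstn KO and 11223 and 10946 in WT. The median male-minus-female difference of the list was 0.0045, and -0.086 when each array was centred on its median.

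**Figure D4:**
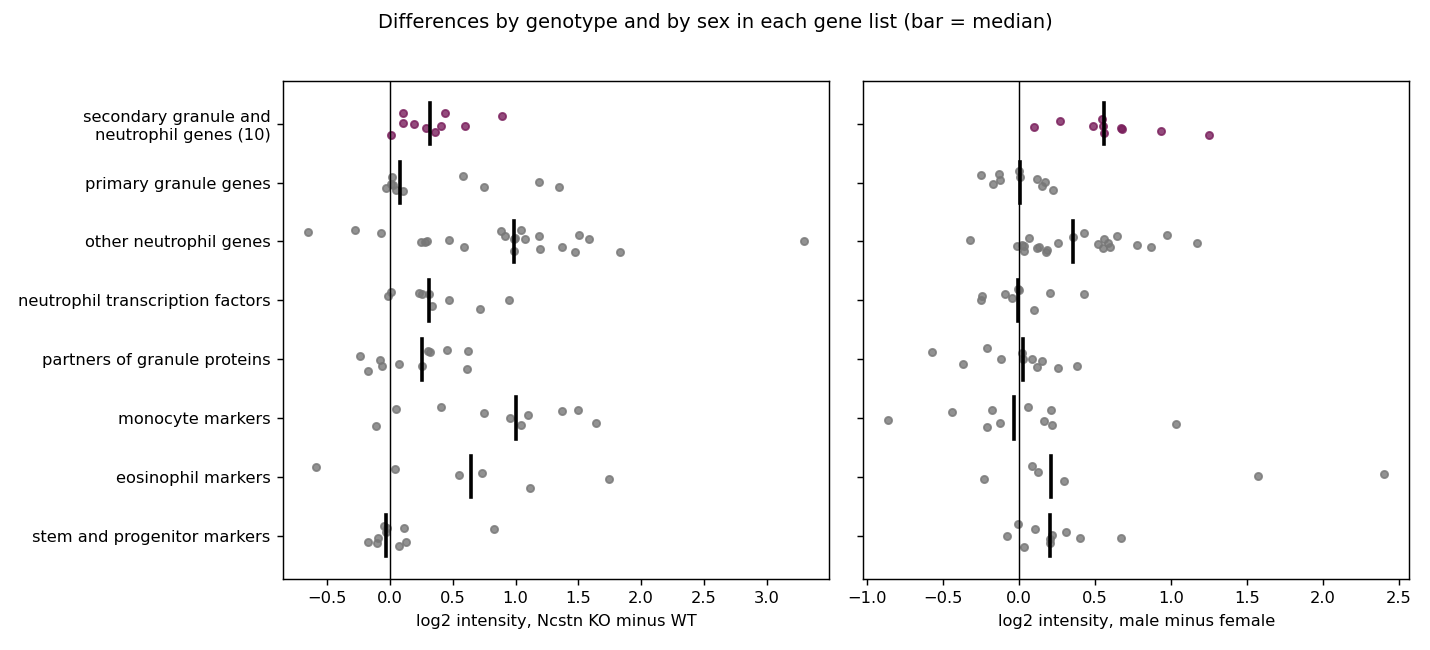
Log2 intensity of Ncstn KO minus WT (left panel, x axis) and of male minus female (right panel, x axis) for each measured gene (points) of 8 lists (rows), with black bars at the list medians. The 10 secondary granule and neutrophil genes have medians of 0.32 by genotype and 0.56 by sex, the other neutrophil genes 0.99 and 0.36, and the primary granule genes 0.08 and 0.0045. Scaled to the hybridization controls, the genotype medians would be 0.13, 0.79 and -0.12.

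Regulators of granulocyte maturation had a median change of 0.31 over 9 measured genes, with 8 above WT and 0 past the test. Scaled to the hybridization controls the median was 0.12, with 7 above WT. Of all 18193 genes, 10150 lay above WT, and 3900 after that scaling. Cebpd, a C/EBP factor of later granulocytes, had a change of 0.94 (SE 0.20, adjusted p = 0.375), Cebpa, the C/EBP factor of granulocyte-macrophage progenitors, of 0.34 (SE 0.08, adjusted p = 0.471), Klf5 of 0.72 (SE 0.25, adjusted p = 0.64) and Stat3, which acts downstream of the receptor for granulocyte colony-stimulating factor, of 0.31 (SE 0.12, adjusted p = 0.713). Cebpe, the C/EBP factor that secondary granule genes depend on, was not analysed here. The male-minus-female median of the list was -0.0075, or 0.0074 when scaled to the hybridization controls. Both male arrays lay above both female arrays for 0 of the 9, against 11.5% of all genes. Gfi1, a repressor needed for neutrophil maturation, was named after its values were seen because it followed the 10 genes in part. It had 3624 in the male and 2799 in the female Ncstn KO mouse, against 2714 in the male and 1947 in the female WT mouse, a male-minus-female difference of 0.43 (SE 0.09).

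Receptors, inhibitors and proteases that act with the products of the 10 genes were mixed in direction. Of 11 measured, 7 lay above WT, against 10150 of all 18193 genes, and 0 passed, with a list median of 0.26. The median was 0.062 when scaled to the hybridization controls and 0.0097 without the Ncstn KO male. Timp1, an inhibitor of metalloproteases, had a change of 0.62 (SE 0.24, adjusted p = 0.695) and was dim, at 20.1 and 24.7 in Ncstn KO and 12.4 and 16.9 in WT. Timp2, a second inhibitor of metalloproteases, had 0.46 (SE 0.18, adjusted p = 0.711), Lrp1, an endocytic receptor that takes up lactoferrin, had 0.61 (SE 0.24, adjusted p = 0.709), and Ager, a receptor for S100 proteins, had 0.32 (SE 0.32, adjusted p = 0.963).

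Markers of other cells that the sorted fraction could hold also differed by genotype or sex, and their part in the values of the 10 genes was not tested. The summed intensity of the 10 genes was 70065 in the male and 49888 in the female Ncstn KO mouse, against 59170.1 in the male and 45912 in the female WT mouse. Over 10 measured monocyte markers the sum was 13106 and 13238 in Ncstn KO, against 9045 and 8621 in WT, in the order male and female. By sex, 5 of the 10 were higher in males on average, with a median male-minus-female difference of -0.031. Klf4, a transcription factor of monocytes chosen after its values were seen, had 1950.2 in the male and 861 in the female Ncstn KO mouse, against 1329 in the male and 720.5 in the female WT mouse. Ly86 had 915 in the male and 1247 in the female Ncstn KO mouse, against 446 in the male and 602 in the female WT mouse. For F13a1 the order of male and female differed between the genotypes, with Ncstn KO higher in both sexes. It had 1732 in the male and 2773 in the female Ncstn KO mouse, against 769.5 in the male and 639.9 in the female WT mouse. Of the 10 monocyte markers, 9 lay above WT, against 10150 of all 18193 genes. The median of the list was 1.001 and 0 passed. The change was 1.64 for F13a1 (SE 0.25, adjusted p = 0.21), 1.498 for Ccr2 (SE 0.24, adjusted p = 0.233), 1.04 for Ly86 (SE 0.24, adjusted p = 0.391) and 0.75 for Csf1r (SE 0.16, adjusted p = 0.377). Over 7 basophil and mast cell markers the sum was 11527 and 12390 in Ncstn KO, against 8095 and 7659 in WT, in the order male and female, with 7 of 7 above WT and a median of 1.10.

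Of the eosinophil markers, 5 of 6 were higher in males on average, with a median male-minus-female difference of 0.21. It was 0.12, with 4 of 6 higher, when each array was centred on its median. Both male arrays lay above both female arrays for 3 of 6 (Prg2, Epx and Il5ra), against 11.5% of all genes. Over 6 measured markers the sum was 1473 in the male and 929 in the female Ncstn KO mouse, against 917 in the male and 502 in the female WT mouse. Prg2, the major basic protein gene of eosinophil granules, had 470.1 in the male and 206 in the female Ncstn KO mouse, against 326 in the male and 26.4 in the female WT mouse. Epx, eosinophil peroxidase, had 111 and 67.8 in the male and female Ncstn KO mice, against 93.2 and 17.2 in the male and female WT mice. For both, the WT female was the lowest array by far and the males were above the females. Prg3, another eosinophil granule gene, chosen after its values were seen, had 18.4 in the male and 43.1 in the female Ncstn KO mouse, against 32.0 in the male and 11.5 in the female WT mouse. Siglecf, a surface lectin and a large share of the sum, had 836 in the male and 574 in the female Ncstn KO mouse, against 425 in the male and 408 in the female WT mouse. Ccr3, the eotaxin receptor, was near the floor of the arrays, at 6.3 and 7.87 in Ncstn KO and 10.1 and 11.1 in WT. Il5ra, named after its values were seen, was dim and nearly level. It had 30.6 and 29.7 in the male and female Ncstn KO mice, against 30.6 and 28.0 in the male and female WT mice. No eosinophil marker passed either comparison. B cell markers summed to 8848 in the male and 4041 in the female Ncstn KO mouse, against 5471 in the male and 5375 in the female WT mouse. Both male arrays were above both female arrays for 4 of 9, against 11.5% of all genes. By genotype, 5 of the 9 lay above WT and 4 below, against 10150 of all 18193 genes above. Ms4a1 had 53.5 in the male and 53.4 in the female Ncstn KO mouse, against 221 in the male and 245 in the female WT mouse. Its log2 change was -2.12 (SE 0.24, adjusted p = 0.162), and that of Blnk was -0.84 (SE 0.36, adjusted p = 0.776). Erythroid markers (8 measured) summed to 14101 and 15304 in Ncstn KO and 13619 and 13005 in WT, in the order male and female, most of it from Car2. Within that list the log2 change was -1.30 for Alas2 (SE 0.36, adjusted p = 0.532) and -1.10 for Trim10 (SE 0.35, adjusted p = 0.604), against 0.86 for Car1 (SE 0.26, adjusted p = 0.583) and 1.04 for Rhag (SE 0.33, adjusted p = 0.602). T and NK cell markers (8 measured) summed to 1023 and 728 in Ncstn KO and 791 and 1128 in WT, in the order male and female. Stem and progenitor markers (10 measured) summed to 45384 in the male and 42603 in the female Ncstn KO mouse, against 45524 in the male and 42227 in the female WT mouse, a narrow range that also put the males higher. For these, both male arrays lay above both female arrays in 5 of 10, against 11.5% of all genes.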

How the data were processed

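The authors deposited linear intensities, 1 per probe set and array. RMA is named in the submitters' processing notes. Its software and background settings: not given in the sources used here. Per the labels' protocols, 5 ng of total RNA was amplified with NuGEN Ovation reagents. From these deposited intensities log2 was taken, with no further scaling. Of 45101 probe sets, 64 controls were left out. Symbols came from the platform annotation of 2016 and 0 were changed by RefSeq. Each of 18193 genes was represented by its brightest probe set naming 1 gene. Limma 3.58.1 in R 4.3.3 (lmFit, eBayes with a variance trend, two-sided) was fitted across all genes with genotype as the only term, and again with sex as a second term. The comparison of sexes, the scalings of the gene lists and the crossed pairing were added after the data were seen. P-values were adjusted over all genes by Benjamini-Hochberg at 0.05. The scripts were tested on simulated data. Figures were drawn with matplotlib 3.10.9.

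The 10 genes and the gene lists were chosen with earlier results of these data known. From each list the 4 genes of smallest p and the brightest gene were eligible to be named. Kit, Cd34, Itgam, Gfi1, Klf4, Prg3, Il5ra, Il1b, Csf3r and Padi4 were named outside that rule. List members without a probe set of their own were not analysed here, and counts are over measured members. Replicates came from separate mice, since the sexes differ. Replicate numbers did not pair the arrays: deviations from the group means correlated at -0.242 over genes between arrays of one number, and at 0.242 between arrays of one sex. Promoters came from RefSeq (GRCm38.p6).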

Additional observations from a re-analysis of the deposited data

Results flagged for a closer look

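For 3 of the 10 genes the change between Ncstn KO and WT had opposite signs in the 2 sexes. The difference between the sexes was not tested, since each genotype had 1 mouse of each sex. The log2 difference (Ncstn KO minus WT) of Camp was 0.43 in males and -0.050 in females. That of Fcnb was 0.66 in males and -0.091 in females, and that of S100a9 was 0.037 in males and -0.017 in females. In the female pair all 3 differences were smaller than those between the male and the female of either genotype. Groups of 2 arrays are too small for a test of single outlying arrays.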

How the results depend on the processing

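No member of the 10 passed the test between genotypes under any of the 14 alternatives (0 each time). Over all genes the count of calls was 3 after a repeated quantile normalization, 62 after centring each array on its median, 2 among genes above the median level, and 0 to 27 when 1 array was left out. Both Ncstn KO arrays lay above both WT arrays for 1 of the 10 genes after quantile normalization, against 20.6% of all genes. The count was 1 after scaling to the hybridization controls, against 6.73%, and 3 after centring on the median, against 19.4%. It was 2 to 10 when 1 array was left out, where all genes gave between 32% and 48.9%. The median change ran from -0.043 to 0.69 without 1 array. The signs that turned were those of Camp (-0.0062), Ngp (-0.093), S100a8 (-0.087) and S100a9 (-0.19) under the hybridization controls. Leaving out 1 array gave ranges that crossed 0 for Camp (-0.27 to 0.65), Ngp (-0.18 to 0.38), Ltf (-0.11 to 0.83), Fcnb (-0.53 to 1.10), Chil3 (-0.015 to 0.82), S100a8 (-0.033 to 0.25) and S100a9 (-0.053 to 0.073), with every negative value from leaving out the Ncstn KO male or the WT female. Lcn2, Mmp8 and Mmp9 kept their sign under all 14, as did all 10 genes under the other alternatives.

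By sex, 3 of the 10 genes passed after centring each array on its median and 0 under the other alternatives fitted; without 1 array that fit has no residual degrees of freedom, and no test was made. Both male arrays were above both female arrays for 8 to 10 and the median difference ran from 0.37 to 0.85 when 1 array was left out. Of all genes 21.5% to 27.6% had the males above then. Sex values without 1 array include part of the difference between the genotypes. The causes of these shifts were not tested. With the replicate block 0 of the 10 and 0 of all genes were called, and with the crossed pairing, which is also that by sex, 0 and 0. Probe set summaries carry no background measure, which limits the dim genes, Mmp8 among them.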
